A study of Mus musculus with 6 samples.

Results

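The ATP-binding cassette (ABC) genes of the mouse were examined in RNA-seq libraries of brain endothelial cells in which 1 or both copies of Rbpj were targeted for deletion. Members were the protein-coding genes whose symbol is Abc, a letter from a to g, and a number with an optional letter, except Abcc9, which left 49 of the 55450 genes in the count table. Of the 49, 39 passed the low-count filter and were tested, and 10 did not.

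Control mice carried Cdh5(PAC)-CreERT2 with 1 floxed and 1 wild-type Rbpj allele (Rbpjflox/WT), and mutant mice carried the same Cre with both alleles floxed (Rbpjflox/flox). Cdh5(PAC)-CreERT2 is a Cre recombinase that becomes active with tamoxifen and is driven by the promoter of Cdh5, the endothelial cadherin gene. The comparison therefore sets deletion of both alleles against deletion of 1, with Cre and tamoxifen in both groups. Tamoxifen was given to pups at 100 µg a dose, once on postnatal day 1 and again on day 2, and brains were taken on day 7, from both sexes on a mixed FVB/N and C57BL/6 background. The time field of the labels gives P0 for every library, while the age field gives P7. CD31-positive cells were captured on magnetic beads after a density gradient, RNA was pooled (more than 20 biological replicates per group by the sample labels, 13 to 15 by the series text), and 3 libraries were sequenced per group. Nothing in the labels says that the 3 libraries came from separate pools, so p-values measure the spread between libraries, which may be technical.

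Library totals ran from 75744913 to 82092461 units of estimated count, of which about 4 stand for 1 read pair. No pair of libraries was a copy of another, by a chi-square on counts divided by 4, over genes past a minimum count. The median of that chi-square was 1.81 to 2.61 times its expectation within groups and 5.32 to 6.12 times between them. Rbpj had 53.8 to 54.3 CPM (counts per 1000000, after scaling by library) in controls and 45.2 to 47.9 CPM in mutants (log2 fold change -0.21 ± 0.042 SE, adjusted p = 0.0129). This count covers all exons of the gene and all captured cells, and controls also carried 1 floxed allele. It is thus a weak check of the deletion. Endothelial markers were abundant, with summed levels of 10140 to 10410 CPM in controls and 10160 to 11100 CPM in mutants over 8 genes (1 higher, 2 lower). The higher gene was Pecam1, which encodes the CD31 used for capture (log2 fold change 0.41, mean 1121 CPM in controls and 1492 CPM in mutants). The lower ones were Tek (-0.62, 609 and 397 CPM) and Cdh5 (-0.15, 1525 and 1377 CPM). The sum does not show these opposite moves. All 62 marker genes of endothelial and other cell types were above 0 in every library, so the enriched cells were not free of other types. Markers are counted as higher or lower at an adjusted p under 0.05, which 7.56% (higher) and 6.83% (lower) of all tested genes passed. Pericyte and smooth muscle markers summed to 2965 to 3069 and 2978 to 3092 CPM, with 2 of 8 higher and 4 lower. That sum is mostly Rgs5 (mean 2043 CPM in controls and 2172 CPM in mutants) and does not show that its members moved apart. The 4 lower genes were those of contractile smooth muscle, Acta2 (log2 fold change -1.32), Myh11 (-1.02), Tagln (-1.17) and Cnn1 (-1.84), and the higher ones were the pericyte genes Kcnj8 (0.49) and Cspg4 (0.19). Microglia markers summed to 1457 to 1489 CPM in controls and 1147 to 1197 CPM in mutants, with 6 of 9 lower. Erythroid markers were at 6971 to 7176 and 4662 to 4957 CPM (5 of 5 lower) and choroid plexus markers at 5021 to 5465 and 3392 to 4418 CPM (1 of 4 lower). Fibroblast markers stood at 801 to 908 and 530 to 702 CPM (2 of 6 lower), and astrocyte markers at 451 to 502 and 235 to 364 CPM (1 of 6 lower). Neuron markers, at 105 to 116 and 114 to 140 CPM, and lymphocyte markers, at 21.4 to 23.8 and 24.9 to 29.8 CPM, had no called member, and oligodendrocyte markers, at 31.0 to 32.6 and 33.4 to 42.2 CPM, had 2 of 6 higher and 1 lower. The part of these other cells in the results below was not tested, and in bulk RNA fewer cells of a type and less RNA per cell cannot be told apart.

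ABC proteins bind and hydrolyse ATP on paired nucleotide-binding domains, and most use it to move a substrate across a membrane. In brain capillaries, P-glycoprotein and Abcg2 sit on the blood-facing membrane and return drugs and toxins to the blood, which makes them part of the blood-brain barrier. Other members export cholesterol and phospholipid, serve mitochondria, lysosomes and peroxisomes, or, in the E and F subfamilies, lack membrane domains and act on ribosomes.

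Among the changes that held under every alternative tried were falls of the P-glycoprotein gene Abcb1a and of Abca9 and rises of Abcc1 and Abcg1. A gene is called higher or lower when the adjusted p of the edgeR quasi-likelihood test, corrected over all 19549 genes tested, was under 0.05. The mutant had 5 of the 39 tested ABC genes higher and 6 lower, together 28.2%, while 14.4% of all tested genes were called (7.56% higher and 6.83% lower). Restricted to genes at 5 CPM or more in a group, 10 of 30 ABC genes (33.3%) and 21.1% of all 11963 genes were called. The median log2 fold change of the 39 was -0.13, beside -0.0092 for all tested genes, and their median absolute change was 0.25 beside 0.19. In 23 of the 39 the control and mutant libraries did not overlap (9 higher and 14 lower), against 34.1% of all tested genes, 16.8% higher and 17.3% lower. The count of higher ABC genes was 3 on leaving out control library 1, 2 or 3, or mutant library 1. Changes were small: among the called genes only Abca8b, at very low level, came near a 2-fold change.

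**Figure D1:**
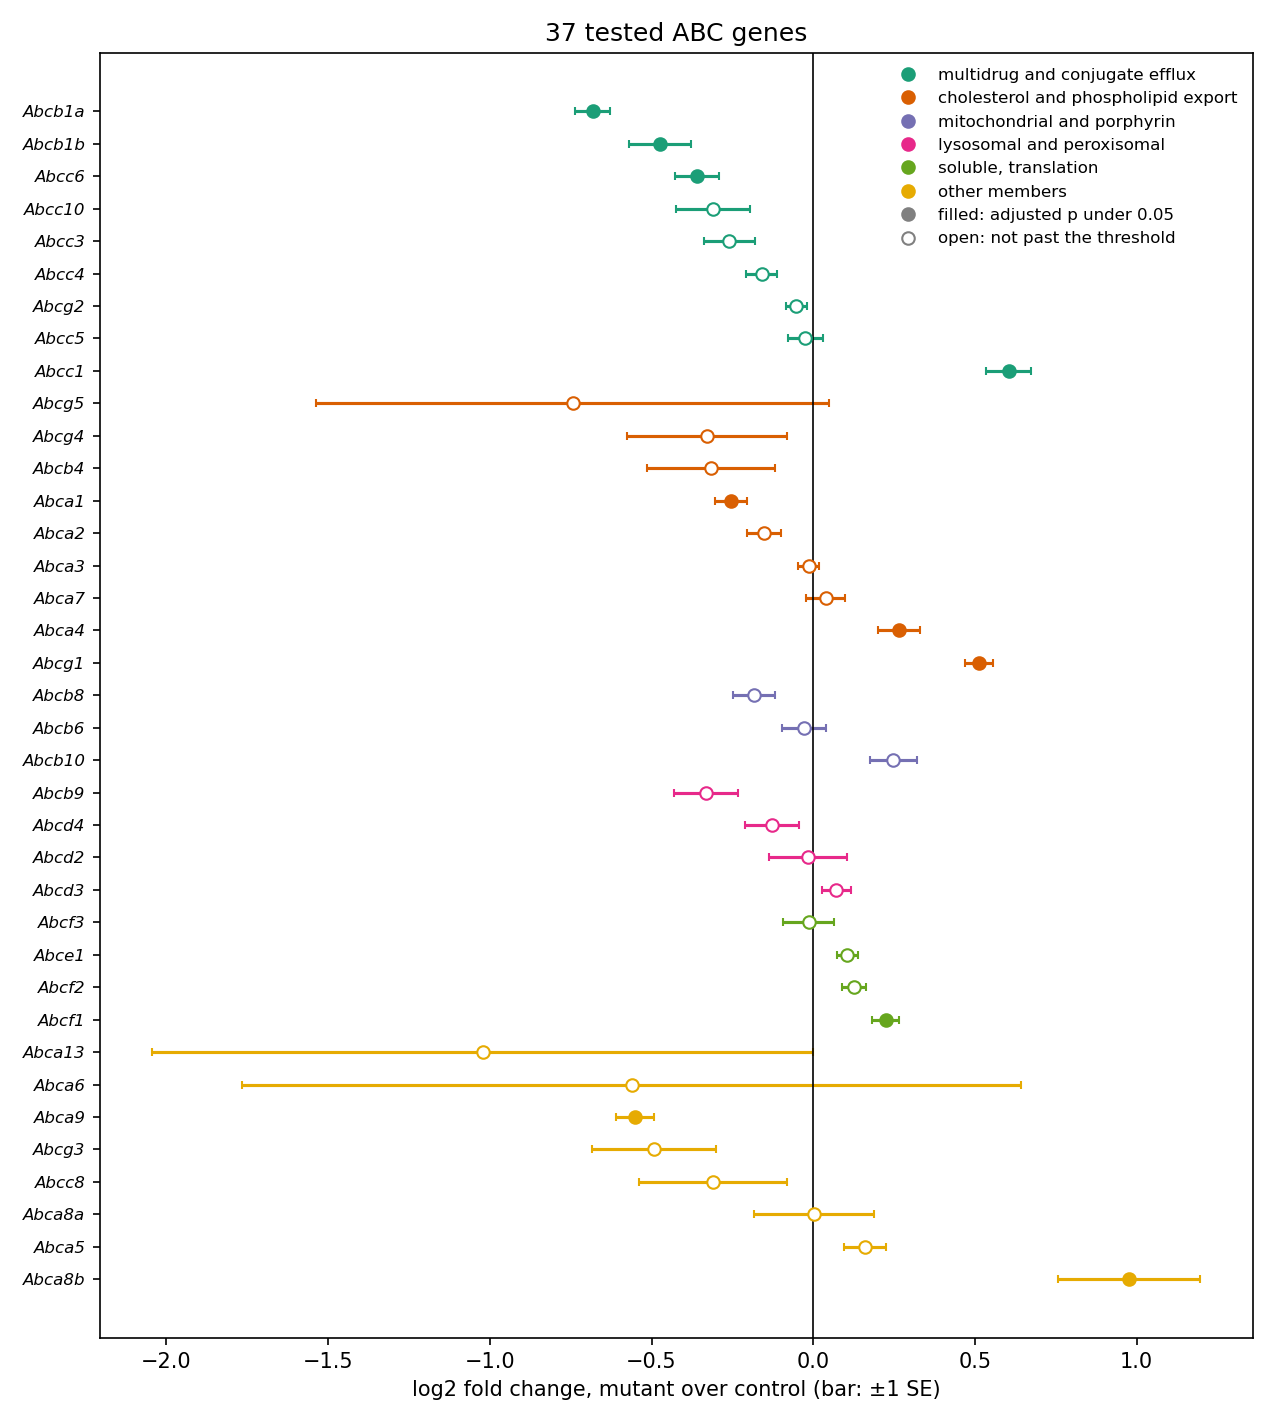
Log2 fold change of mutant over control (horizontal axis, bars ±1 SE) for 37 tested ABC genes, grouped by role; filled points passed the adjusted p threshold of 0.05. Efflux genes lie mostly left of 0 with Abcc1 at 0.60 on the right, and the wide bars belong to genes near the detection limit such as Abca13, Abca6 and Abcg5.

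Multidrug and conjugate efflux genes carried 3 falls and 1 rise among 9 tested members, and in 8 of the 9 the groups did not overlap (7 lower in the mutant, 1 higher). That is 44.4% called and 88.9% without overlap, beside 14.4% and 34.1% of all tested genes. All 9 were above 5 CPM, and of all genes at 5 CPM or more in a group, 21.1% were called and 42.6% did not overlap. Of the 3 falls, those of Abcb1a and Abcb1b come from close copies that share stretches of read length, as given below. The summed level of the efflux genes was 1101, 1154 and 1120 CPM in controls and 894, 896 and 942 CPM in mutants. Abcb1a supplied most of that difference, and Abcg2, Abcc4 and Abcc5 did not pass the test.

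Abcb1a encodes the main P-glycoprotein of mouse brain capillaries. The gene (ENSMUSG00000040584) occupies chr5:8660077-8748575 of GRCm38, plus strand. The level of Abcb1a was 459, 489 and 459 CPM in controls and 281, 281 and 315 CPM in mutants. Every mutant library was below every control library, and the lowest control value exceeded the highest mutant value by more than the range within either group. The log2 fold change was -0.68 ± 0.054 (SE), a level 0.62 times that of control (adjusted p = 0.000182).

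Abcb1b, the neighbouring second P-glycoprotein gene (chr5:8798147-8866315, plus strand), fell as well, from 13.4, 15.2 and 13.5 CPM to 9.11, 10.8 and 10.4 CPM. Its log2 fold change was -0.47 ± 0.097 (adjusted p = 0.0160), and the groups did not overlap. Without control library 2 the adjusted p was 0.0631, within a range of 0.000571 to 0.0631 over the alternatives that kept Abcb1b as a row of its own. Both genes are close copies: their longest open reading frames, of 3831 bases each, were 88.0% identical, with 338 identical bases in a row. Of all stretches of 150 bases, the read length, in Abcb1a transcripts 5.54% also occur in Abcb1b, as do 3.63% of those of Abcb1b in Abcb1a. Reads from these stretches could be counted for either gene, so the low Abcb1b level and its fall are both uncertain. With both genes summed into 1 row, the log2 fold change was -0.68 ± 0.054 (adjusted p = 0.000185). That sum is nearly all Abcb1a, so it says little about Abcb1b. Abcb1a made up 97.2%, 97.0% and 97.1% of the summed count in controls and 96.9%, 96.3% and 96.8% in mutants, a difference of -0.44 percentage points. A two-sided exact permutation test gave p = 0.1, the smallest that 3 against 3 libraries can give.

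Rbpj binds DNA at the core TGGGAA, and RefSeq promoter windows were searched for it on both strands (build GRCm38.p6, 250 bases before each annotated start). Windows were present for 37 of the 49 members, 44 windows in all. Some called genes had no window and were not searched, among them Abcc1, Abcg1 and Abcc6. TGGGAA was in 8 of the 44 windows (18.2%) and in 21.6% of all 32851 windows of the same length. The longer form GTGGGAA, which contains the core, was in 1 (2.27%) and in 5.42% of all. Among called genes with a window, 1 of 3 higher ones held the core (Abca8b) and 0 of 4 lower ones did. The 4 include Abcb1a, whose window lies far from the start of the gene as counted here. These are matches of letters in a short window and say nothing about binding there or elsewhere. Shown are the windows of both P-glycoprotein genes, of Abca1, the most highly expressed lipid exporter, and of Abca8b. TGGGAA is in capitals where it occurs.
Abcb1a (chr5:8566841-8567090, plus strand): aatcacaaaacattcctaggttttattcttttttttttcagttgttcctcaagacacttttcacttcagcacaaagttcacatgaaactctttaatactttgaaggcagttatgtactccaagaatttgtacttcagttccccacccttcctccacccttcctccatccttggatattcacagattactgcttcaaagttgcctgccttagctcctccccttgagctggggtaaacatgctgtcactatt
Abcb1b (chr5:8797897-8798146, plus strand): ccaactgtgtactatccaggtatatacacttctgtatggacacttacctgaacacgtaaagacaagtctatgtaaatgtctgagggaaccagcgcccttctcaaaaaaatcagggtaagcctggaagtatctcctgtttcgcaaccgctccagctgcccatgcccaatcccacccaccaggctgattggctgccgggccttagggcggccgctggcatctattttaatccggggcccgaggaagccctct
Abca1 (chr4:53159896-53160145, minus strand): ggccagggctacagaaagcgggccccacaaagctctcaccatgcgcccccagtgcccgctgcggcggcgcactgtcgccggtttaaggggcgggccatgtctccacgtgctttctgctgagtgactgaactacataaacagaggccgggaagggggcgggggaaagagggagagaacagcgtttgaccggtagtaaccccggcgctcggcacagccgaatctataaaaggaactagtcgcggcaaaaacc
Abca8b (chr11:109995846-109996095, minus strand): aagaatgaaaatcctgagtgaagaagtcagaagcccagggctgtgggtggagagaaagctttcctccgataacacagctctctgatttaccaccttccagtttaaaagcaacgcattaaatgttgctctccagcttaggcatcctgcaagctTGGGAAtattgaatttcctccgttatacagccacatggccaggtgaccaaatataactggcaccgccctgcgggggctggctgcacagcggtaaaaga
The Abcb1a, Abcb1b and Abca1 windows contain no TGGGAA on either strand, and that of Abca8b holds 1, beginning 98 bases before the start. The Abcb1a window ends at 8567090, far upstream of the GENCODE gene start at 8660077, so the bases before that start were not searched. The Abcb1b, Abca1 and Abca8b windows end at the base beside the GENCODE gene.

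Abcg2, the breast cancer resistance protein and the other main drug pump of the barrier, was at 324, 330 and 339 CPM in controls and 316, 319 and 323 CPM in mutants. The mutant libraries were all slightly below the control libraries, but the log2 fold change of -0.05 ± 0.031 did not pass the test (adjusted p = 0.350). Abcc4, which exports cyclic nucleotides and conjugates, had 174, 192 and 182 CPM in controls and 160, 159 and 171 CPM in mutants. Here too the groups did not overlap, and the log2 fold change was -0.16 ± 0.049 (adjusted p = 0.0723). It passed the threshold with library size as the only scaling (adjusted p = 0.0375, against up to 0.242 in other alternatives). Abcc5, another exporter of cyclic nucleotides, overlapped between the groups at 50.4, 49.4 and 46.0 CPM and 48.2, 49.4 and 45.7 CPM (-0.02 ± 0.054, adjusted p = 0.830).

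Abcc1, the multidrug resistance protein that exports glutathione conjugates and leukotrienes (chr16:14361558-14475737, plus strand), was the efflux gene that rose. Expression was 19.8, 18.9 and 19.0 CPM in controls and 31.5, 27.4 and 28.7 CPM in mutants, with no overlap. The log2 fold change was 0.60 ± 0.070, a 1.52-fold level (adjusted p = 0.00112). Abcc6, which is required for ATP release by liver and is mutated in pseudoxanthoma elasticum, fell. It was at 33.4, 33.7 and 35.4 CPM in controls and 25.2, 25.7 and 28.9 CPM in mutants (-0.36 ± 0.068, adjusted p = 0.0117). Leaving out mutant library 2 moved that adjusted p to 0.0536, within a range of 0.000369 to 0.0536 over its alternatives.

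Abcc3, an exporter of glucuronides and bile salts, had 17.6 CPM in controls and 14.7 CPM in mutants (-0.26 ± 0.079, adjusted p = 0.0722; 0.0434 with DESeq2 and up to 0.195 in other alternatives), and Abcc10 had 8.87 and 7.15 CPM (-0.31 ± 0.115, adjusted p = 0.129). Neither passed the edgeR test, though the mutant libraries lay below the control libraries for both. Per kilobase of exon, which allows levels of different genes to be compared, the control order of efflux genes was Abcb1a at 85.6, Abcg2 at 40.6 and Abcc4 at 28.6 CPM per kb. In mutant libraries these were 53.4, 39.1 and 25.6 CPM per kb. Abcc1 stood far lower, at 1.27 and 1.94 CPM per kb, in controls and mutants.

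**Figure D2:**
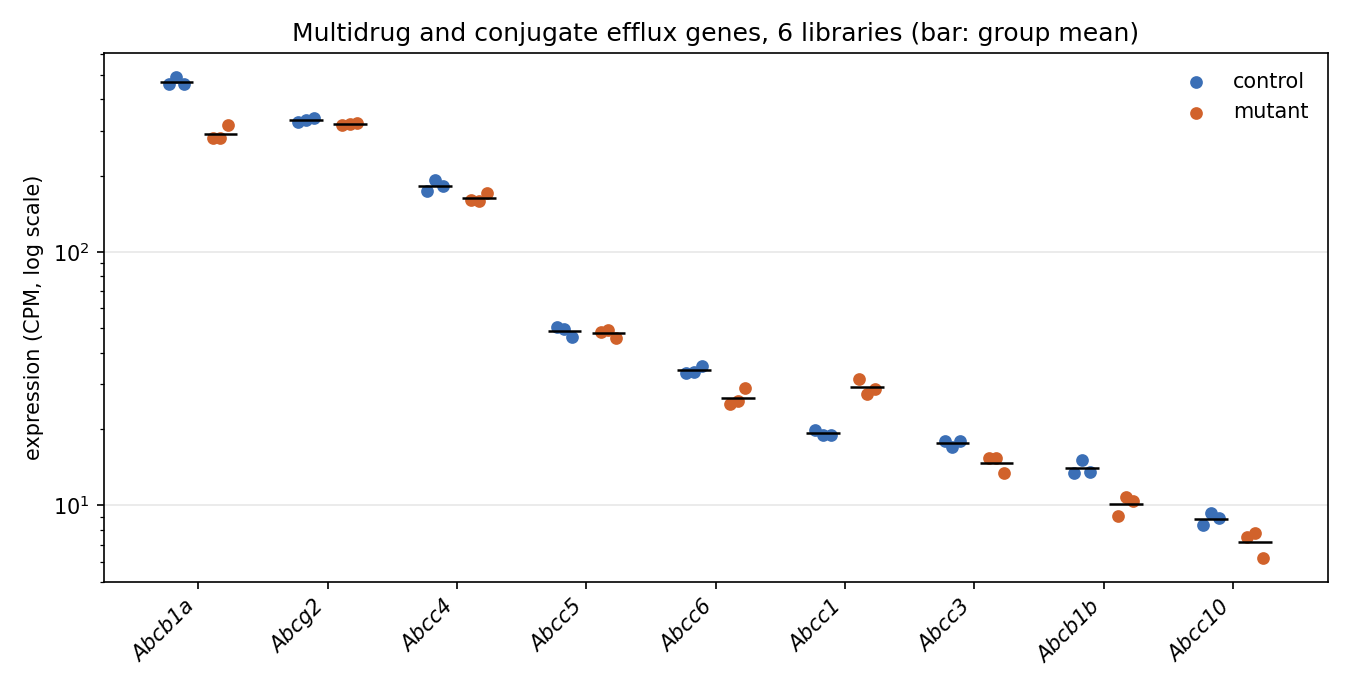
Expression of the 9 tested efflux genes in each library (vertical axis, CPM on a log scale; points are libraries, horizontal bars group means). The groups are apart for Abcb1a (459 to 489 against 281 to 315 CPM) and, in the other direction, for Abcc1, nearly equal for Abcg2 and overlapping for Abcc5.

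Genes listed as cholesterol and phospholipid exporters moved in both directions, with 2 of 9 tested members higher and 1 lower. That is 33.3% called, beside 14.4% of all tested genes. Of the 2 higher ones, Abcg1 exports cholesterol, while Abca4 is a retinoid flippase. Abca1 and Abcg1 work in sequence in the efflux of cholesterol, Abca1 loading lipid-poor apolipoprotein and Abcg1 mature lipoprotein particles. Abca1, at chr4:53030787-53159895, minus strand, fell, and Abcg1, at chr17:31057675-31117988, plus strand, rose.

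Abca1 was at 775, 808 and 734 CPM in controls and 641, 621 and 682 CPM in mutants. The highest mutant library stayed below the lowest control library, and the log2 fold change was -0.25 ± 0.049 (adjusted p = 0.0128). The call was lost on leaving out control 1, control 2 or mutant 2, with adjusted p = 0.0586, 0.0574 and 0.0564, against 0.00168 to 0.0586 over all its alternatives. Abcg1 had 208, 221 and 217 CPM in controls and 305, 295 and 321 CPM in mutants. No library of 1 group reached the other, and the log2 fold change of 0.51 ± 0.043 was a 1.43-fold level (adjusted p = 0.000242). Microglia, which also express both genes, had lower markers in mutants, as given above, and their part in these values was not tested.

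Abca4, the retinoid flippase of photoreceptors, was at 19.9, 20.7 and 19.7 CPM in controls and 25.6, 23.0 and 23.9 CPM in mutants (0.27 ± 0.065, adjusted p = 0.0331). The groups were apart, but leaving out control 1, 2 or 3 gave adjusted p = 0.102, 0.0641 or 0.0956, and leaving out mutant 1 or 3 gave 0.104 or 0.0633, in a range of 0.0061 to 0.104 over its alternatives. Abca3, which loads phospholipid into lamellar bodies of lung, was at 137, 140 and 138 CPM in controls and 134, 137 and 139 CPM in mutants. These overlapped, and the difference was -0.01 ± 0.033 (adjusted p = 0.851).

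The remaining tested genes of the lipid exporter list were not called. Abca7 had means of 38.9 and 40.0 CPM, and Abca2, a lysosomal lipid transporter, 44.7 and 40.3 CPM, the latter without overlap (adjusted p = 0.109). Abcb4, the phosphatidylcholine flippase of bile, Abcg4 and Abcg5 were at mean levels of 2.86, 1.66 and 0.35 CPM in controls and 2.30, 1.32 and 0.21 CPM in mutants (adjusted p = 0.375, 0.469 and 0.628).

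**Figure D3:**
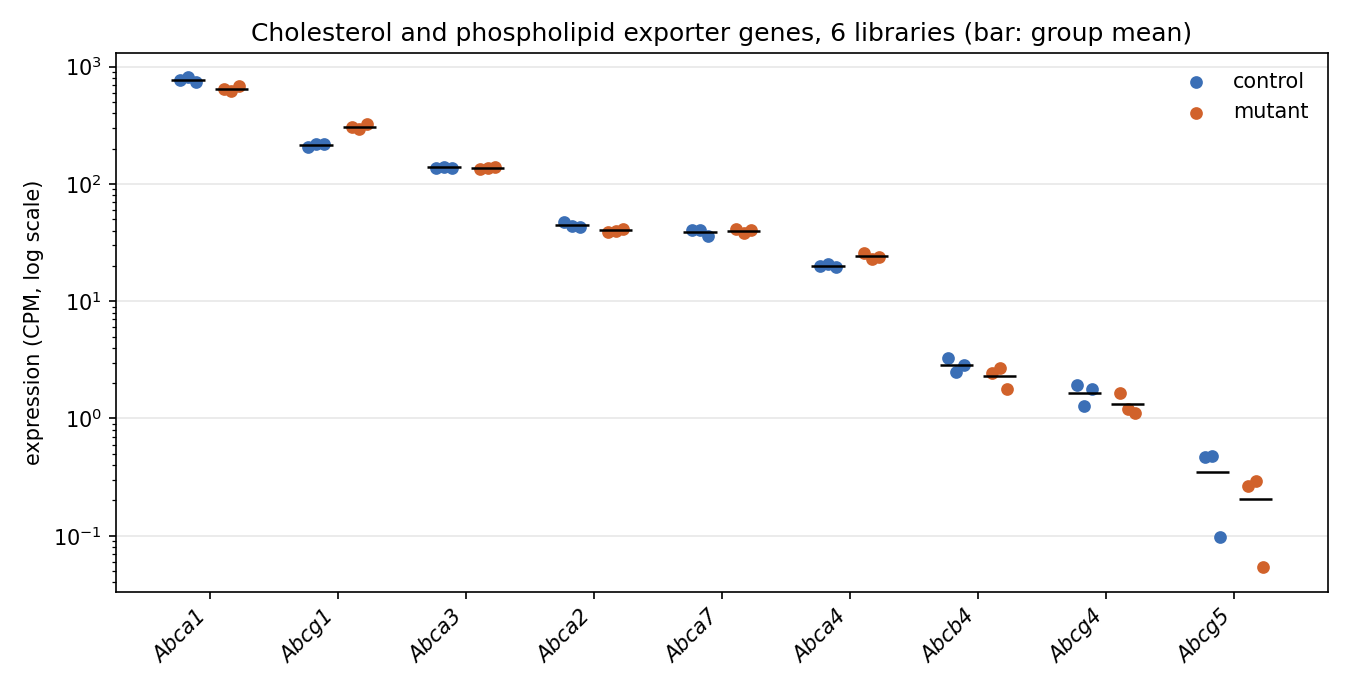
Expression of the 9 tested genes listed as cholesterol and phospholipid exporters in each library (vertical axis, CPM on a log scale; points are libraries, horizontal bars group means). Abca1 lies lower and Abcg1 and Abca4 higher in mutants, while Abca3 overlaps at 134 to 140 CPM.

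Mitochondrial and porphyrin transporters had no called member among 4, while 14.4% of all tested genes were called. Abcb10, which is needed for heme synthesis, had 28.7 CPM in controls and 34.1 CPM in mutants with no overlap (0.25 ± 0.073, adjusted p = 0.0653). Abcb8 was at 32.7 and 28.8 CPM (-0.18 ± 0.066, adjusted p = 0.117), also without overlap. Abcb6 had 20.1 and 19.8 CPM, but 41.5% of its stretches of read length also lie in Gm29253 on the same strand, so its count is uncertain. DESeq2 called Abcb10 (adjusted p = 0.0307, against up to 0.173 in other alternatives).

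Lysosomal and peroxisomal transporters serve fatty acid, peptide and vitamin transport inside the cell, and Abcd3, Abcd2, Abcd4 and Abcb9 were not called. The peroxisomal importer Abcd3 was at 87.1 and 91.5 CPM and overlapped (0.07 ± 0.045, adjusted p = 0.379). Abcd2, at 9.69 and 9.58 CPM, and the lysosomal cobalamin exporter Abcd4, at 16.0 and 14.6 CPM, overlapped too. Abcb9, a lysosomal peptide transporter, had 7.82 and 6.21 CPM without overlap (-0.33 ± 0.10, adjusted p = 0.0702), and it passed the threshold with DESeq2 (adjusted p = 0.0413) and with the stricter filter (adjusted p = 0.0473), against up to 0.202 in other alternatives.

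The 4 soluble members, which act on ribosomes, were all in the upper range of expression, at the 80.1 to 93.3 percentile of tested genes in CPM per kb. Abcf1, which associates with ribosomes in translation initiation, rose from 137, 139 and 141 CPM to 155, 162 and 170 CPM (0.22 ± 0.042, adjusted p = 0.0112). Without control library 1 its adjusted p was 0.0509, in a range of 0.000935 to 0.0509 over its alternatives. Abcf2 was at 103, 98.5 and 101 CPM in controls and 112, 107 and 111 CPM in mutants (0.13 ± 0.037, adjusted p = 0.0620). Abce1, the ribosome recycling factor, had 133, 132 and 129 CPM in controls and 143, 140 and 141 CPM in mutants (0.11 ± 0.032, adjusted p = 0.0721). For Abcf1, Abcf2 and Abce1 every mutant library was above every control library. Abcf2 and Abce1 passed the threshold with the stricter filter (adjusted p = 0.0377 and 0.0462) and with counts divided by 4 (adjusted p = 0.0346 and 0.0426), and reached 0.180 and 0.196 in other alternatives. Abcf3 overlapped, at 47.7, 50.7 and 48.3 CPM and 42.5, 51.5 and 51.3 CPM (-0.01 ± 0.079, adjusted p = 0.941).

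Of the other 14 members 8 were tested, and 1 rose and 1 fell (25% called, beside 14.4% of all tested genes). Abca9, a subfamily A gene at chr11:110100749-110168196, minus strand, was at 53.8, 52.5 and 48.8 CPM in controls and 34.1, 37.3 and 34.4 CPM in mutants. The groups were well apart, with a log2 fold change of -0.55 ± 0.059 and a level 0.68 times that of control (adjusted p = 0.0008). Abca8b rose from 1.18, 1.04 and 0.81 CPM to 1.86, 2.30 and 1.78 CPM (0.98 ± 0.219, adjusted p = 0.0241), which is 66 to 93 units of count in controls and 132 to 179 in mutants. Leaving out control 2 or 3 gave adjusted p = 0.0671 or 0.0658, and leaving out mutant 1 or 2 gave 0.0561 or 0.0842, within 0.00236 to 0.0842 over the alternatives that kept Abca8b as a row of its own, and summed with Abca8a the adjusted p was 0.216. The fold change of Abca8a, its neighbour, was 0.002 ± 0.184 on the log2 scale, at 2.65 CPM in both groups, and no stretch of 150 bases is shared between them.

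Among the uncalled rest, Abca5 had 15.19 and 16.97 CPM with no overlap (adjusted p = 0.161) and Abcg3 2.00 and 1.42 CPM (adjusted p = 0.146). Abcc8, the sulfonylurea receptor of potassium channels, was at 1.06 and 0.86 CPM, and Abca6 and Abca13 stayed at or below 0.342 CPM in every library. The 10 members that were not tested, Abca12, Abca14, Abca15, Abca16, Abca17, Abcb5, Abcb11, Abcc2, Abcc12 and Abcg8, had at most 33 units of count over all 6 libraries. Of these, Abca15, Abca16, Abcb5 and Abcb11 had a count of 0 in all 6. A count of 0 allows up to 3 read pairs, or 12 units, in a library, which is 0.146 to 0.162 CPM and covers counting error only.

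Several members overlap genes on the opposite strand, and the sources used here do not say if strand entered the counting. Abcb1a overlaps Gm42686 (0.129 to 0.442 CPM), Abcb10 overlaps Gm45890 (0.122 to 0.537 CPM), Abca3 overlaps D330041H03Rik (0.556 to 1.33 CPM) and Abcc10 overlaps Dlk2 (0.0505 to 0.404 CPM). Each of these partners was far below the ABC gene it overlaps. Gm11697, Gm5106 and Gm34086, which overlap Abca8b, Abcb1b and Abcb9, were at 0 in all libraries. Abcg5 and Abcg8 overlap each other on opposite strands.

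In the order of levels per kilobase of exon, Abcb1a and Abca1 led the family in both groups. In controls Abcb1a was first at 85.6 and Abca1 second at 74.5 CPM per kb, and in mutants Abca1 was first at 62.5 and Abcb1a second at 53.4 CPM per kb. Abcg1 had rank 6 at 29.5 in controls and rank 4 at 42.1 CPM per kb in mutants, above Abcg2 at 39.1. Averaged over the 6 libraries, Abcb1a was at the 96.2 and Abca1 at the 96.1 percentile of all tested genes.

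Genes that work with ABC transporters were read from lists of sensors and partners. For sterol sensing and reverse cholesterol transport, 3 of 24 tested genes were higher and 7 lower. Among the higher ones were Nr1h3 (0.69 ± 0.082, adjusted p = 0.00128), the liver X receptor that drives Abca1 and Abcg1 transcription, and the sterol hydroxylase gene Ch25h (1.35, from 1.68 to 4.28 CPM). Among the lower ones were Lcat (-0.85), which esterifies cholesterol on lipoproteins, Pltp (-0.63 ± 0.048, from 1702 to 1100 CPM, adjusted p = 0.000153), which transfers phospholipid, and Rxra (-0.23). Nr1h2, the other liver X receptor, at 53.5 and 49.7 CPM, was not called (adjusted p = 0.378).

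Xenobiotic sensing and drug metabolism had 1 of 20 tested genes higher, Txnrd1 (0.17), and 3 lower. These were Ephx1, an epoxide hydrolase (-0.62 ± 0.033, adjusted p = 3.25e-05), Nqo1 (-0.53), and Por, the electron donor of cytochromes P450 (-0.17). The sensors Ahr, at 17.5 and 16.3 CPM, and Nfe2l2, at 123 and 131 CPM, were not called, and Nr1i2, the pregnane X receptor, was too low to be tested.

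Of 15 mitochondrial heme and iron-sulfur genes, 2 were lower, Alas1 (-0.53), the first enzyme of heme synthesis, and Ppox (-0.30). Of 14 peroxisomal partners, 3 were lower, among them Pex16 (-0.37) and Lmbrd1 (-0.20), the lysosomal partner of Abcd4, and none was higher. Of 9 translation partners, 4 were higher and none lower: Pelo (0.55 ± 0.049, adjusted p = 0.000344), the ribosome rescue factor that works with Abce1, the initiation factor genes Eif2s2 (0.33) and Eif2s1 (0.22), and the release factor gene Etf1 (0.14). Pelo shares exon sequence on the same strand with the protein-coding Gm49395, so its count is uncertain. The ABC genes under other symbols, Tap1, Tap2 and Cftr, were not called (adjusted p = 0.481, 0.279 and 0.0794). Each of these counts is to be read beside the 7.56% of all genes called higher and the 6.83% called lower.

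How firmly the 11 calls stood differed between genes. Abcb1a, Abcc1, Abcg1 and Abca9 passed the threshold under every alternative in which they were tried. Their highest adjusted p values were 0.00241, 0.00711, 0.00285 and 0.00568. Abcb1b, Abcc6, Abca1, Abcf1, Abca4 and Abca8b each lost the call in at least 1 alternative, and none of the 11 changed direction. Mutant library 3 stood apart from mutant library 1 on the second principal component (21.9 against -17.6, 15.8% of variance), and without it 10 of the 11 genes were called, all but Abca4.

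**Figure D4:**
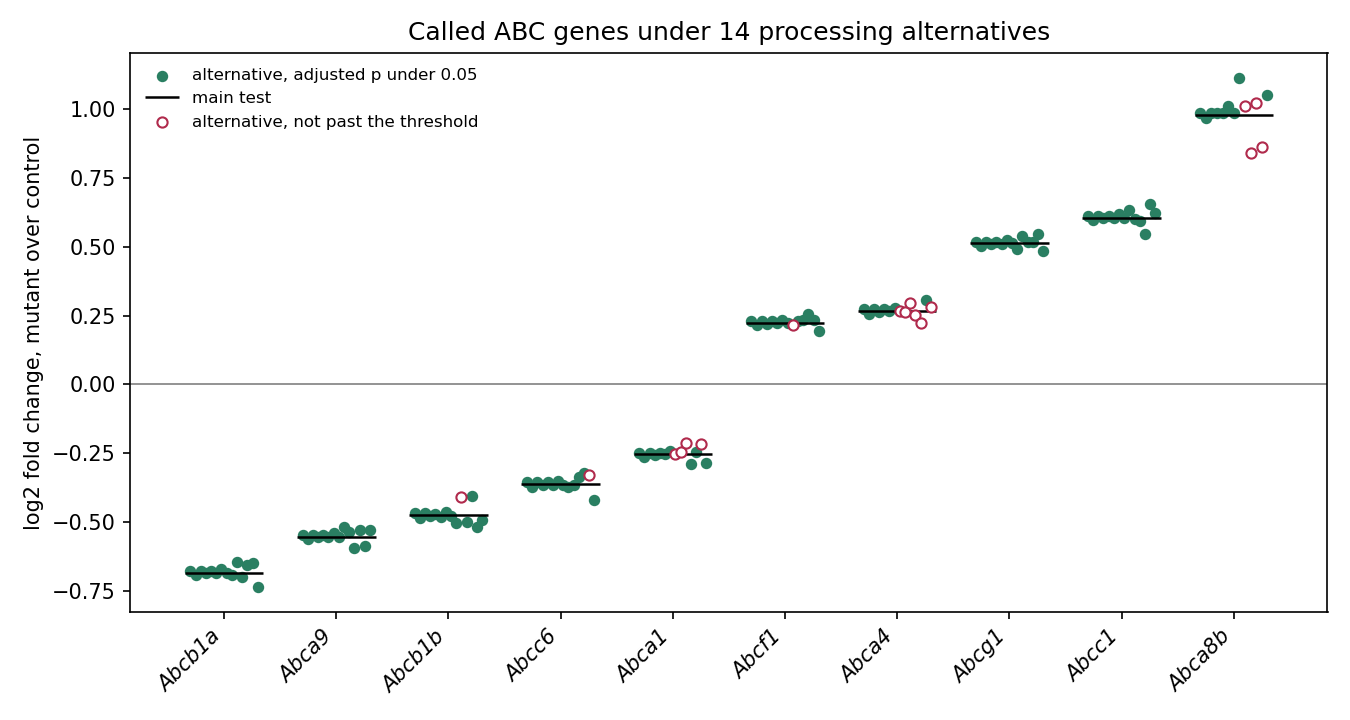
Log2 fold change of 10 called ABC genes (vertical axis) under each of 14 processing alternatives that tested them; filled points passed an adjusted p of 0.05, open points did not, and black lines are the values reported in the text. All points of a gene lie on 1 side of 0, and open points occur for Abcb1b, Abcc6, Abca1, Abcf1, Abca4 and Abca8b.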

How the data were processed

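RNA-seq counts of 3 control and 3 mutant libraries were compared. The submitters' processing notes name StringTie 1.3.4, HISAT2, cutadapt 1.10, edgeR, FastQC 0.10.1 and build GRCm39; roles, parameters and annotation are not given in the sources used here. Estimated counts, whole and not normalized, make up the deposited gene table. Low values pile up at multiples of 4 (1118 to 1190 genes per library with a count of 4, against 316 to 365 with 3), so about 4 units stand for 1 read pair. The deposited quality table gives counts of reads and the percent of reads that were valid, and library totals were 1.51 to 1.53 times the valid reads. All 55450 identifiers matched GENCODE release M21 (GRCm38), the source of symbols, coordinates and exon lengths; promoters are from RefSeq on GRCm38.p6, and no sequence was read by a coordinate of another build.

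Genes were filtered with filterByExpr, scaled by TMM (factors 0.978 to 1.009) and tested with edgeR 4.0.16 (quasi-likelihood F test, R 4.3.3), fitting group alone, with Benjamini-Hochberg adjustment over 19549 genes. The design had assumed raw counts; the estimates were already whole, so the test was kept. The SE is the log2 fold change over the square root of F, and CPM uses TMM-scaled totals. Alternatives were RLE or no scaling, no filter, at least 5 CPM in 3 libraries, DESeq2 1.42.0, limma-voom (limma 3.58.1), counts divided by 4, the replicate number as a block, each library left out, and close copies summed. The test was checked on simulated data, but recovery was required only for changes larger than those of the called ABC genes. Named with every library's value were all called members, the 10 with the highest CPM per kb, and Abcb1a, Abcb1b, Abcg2, Abcc1, Abcc4 and Abcc5; partner lists give up to 4 called genes in each direction. Members, lists and tests were chosen with earlier results of these data known. A planned search of protein sequences was not run. Some members and partner genes are counted but not reported here one by one.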

Additional observations from a re-analysis of the deposited data

How the results depend on the processing

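With 1 library left out, ABC genes called higher numbered 3 to 4 (5 with all libraries) and those called lower 4 to 6 (6 with all). Over all genes, 1100 to 1270 were then higher and 807 to 1125 lower, against 1477 and 1335. The fall in lower calls over all genes was past 1.5 times without control library 1 (807), control library 2 (861) and mutant library 2 (865). ABC genes called higher fell to 3 on leaving out control library 1, 2 or 3, or mutant library 1. The difference in the Abcb1a share ran from -0.545 to -0.265 percentage points. Fewer libraries were fitted there; no other cause was tested. Under the other settings ABC genes called higher numbered 4 to 7 and lower 5 to 8.

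Deviations of same-numbered libraries correlated by 0.0107, 0.0169 and 0.0389, and those of differently numbered libraries by -0.028 to 0.0122. Mutant libraries 2 and 3 correlated best with the control of their own number, and mutant library 1 with control library 2 (0.0122). Values this close to 0 do not settle whether the replicate numbers pair the libraries. With the replicate block, 1106 genes were higher and 953 lower, and 4 ABC genes were higher and 5 lower; Abca1 (adjusted p = 0.0567) and Abca4 (0.0915) were not called. With Abca8a and Abca8b summed, the log2 fold change was 0.34 and the summed row was not called (adjusted p = 0.216). That row includes Abca8a, at 2.65 CPM in both groups. The 2 genes share no stretch of read length, so their sum does not resolve shared reads and is no check of Abca8b alone.

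Signs changed for 8 of the members described, all uncalled. Abca8a had -0.00466 with library size only, -0.00523 with limma-voom and -0.0125 with the replicate block, and Abca6 0.29 with limma-voom. With 1 library left out the log2 fold change ran from -0.0942 to 0.158 for Abca8a, -1.70 to 0.0733 for Abca6, -0.133 to 0.0816 for Abcd2, -0.0526 to 0.0719 for Abcf3, -0.0635 to 0.011 for Abcc5, -0.0221 to 0.00107 for Abca3, -0.0151 to 0.0743 for Abca7 and -0.08 to 0.0145 for Abcb6; the cause was not tested. Depth limits the genes below about 1 CPM, which rest on few read pairs.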

Other observations

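Members that are neighbours in the genome did not all move alike. On chromosome 11, 5 subfamily A genes lie in a row on the minus strand, from Abca8b at 109932190 to Abca5 ending at 110337716. In that order the log2 fold changes were 0.98 (Abca8b, called), 0.002 (Abca8a), -0.55 (Abca9, called), -0.56 (Abca6, under 0.3 CPM) and 0.16 (Abca5). The called genes of this row thus stood on opposite sides of 0. On chromosome 5, Abcb1a, Abcb1b and Abcb4 follow one another on the plus strand, with log2 fold changes of -0.68, -0.47 and -0.32, of which Abcb1a and Abcb1b were called. Abcc6 (-0.36, called) and Abcc8 (-0.31, adjusted p = 0.457) neighbour each other on chromosome 7. The open reading frames of Abca8a and Abca8b were 73.8% identical and those of Abcb1a and Abcb4 75.6%, and neither pair shares a stretch of read length.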
